A study of Mus musculus with 2 samples.

Results

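Creatine, adenylate and AMP deaminase genes serve the rapid handling of high-energy phosphate in muscle, and 10 of them, Ckm, Ckmt2, Ckb, Ckmt1, Gatm, Gamt, Slc6a8, Ak1, Ampd1 and Ampd3, were followed here in mouse gastrocnemius. They were chosen by symbol, each symbol named 1 gene, and they are 10 of the 55536 Ensembl genes in the gene table. The tissue was the large calf muscle of male B6CASTF1/J mice, an F1 cross of C57BL/6 and CAST, at 36 days of age. The series holds 1 group of 2 libraries, labelled biological replicates 2 and 1, and no treatment or control group. The replicates are separate biosamples whose descriptions carry different sample numbers, but both give the same donor entry, so whether they are 2 animals could not be settled. The spread between them may then be biological or partly technical. With 1 group of 2, no p-value was computed for any gene.

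Each library was a stranded, ribosomal-RNA-reduced total RNA library made from 300 ng of RNA, with a depth of 38754338 expected counts for replicate 2 and 36952277 for replicate 1. At these depths a listed 0 allows up to 3 counts, or 0.0774 CPM in replicate 2 and 0.0812 CPM in replicate 1. All 6 skeletal fibre markers were detected, with summed levels of 80637 TPM in replicate 2 and 77611 TPM in replicate 1. CPM scales counts by the library total, and TPM is a relative transcript abundance that is also scaled by length. Of the 5 liver markers 0 were detected at 1 TPM in both libraries, and Alb, Ttr and Apoa1 were listed at 0. Of the 5 heart markers Nppa was listed at 0 and 2 were detected, Myh6 (16.4 TPM in replicate 2, 8.19 in replicate 1) and Tnnt2 (2.19 TPM, 2.18 TPM in the same order). Slow fibre markers were higher in replicate 2 for 8 of 8 genes, with sums of 594 TPM in replicate 2 and 344 TPM in replicate 1. Schwann cell markers were lower in replicate 2 for 8 of 8 genes, at 109 TPM against 475 TPM, and fibroblast markers for 5 of 5, at 892 TPM against 1726 TPM.

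Creatine kinases transfer phosphate between ATP and creatine, so that phosphocreatine buffers ATP during contraction. Mitochondrial forms load creatine near the site of ATP production, and cytosolic forms return the phosphate to ADP near the myofibrils. Adenylate kinase converts ADP into ATP and AMP, and AMP deaminase turns the AMP into IMP, the first step of the purine nucleotide cycle. Creatine itself is made mostly outside muscle and enters the fibre through a transporter.

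Of the 10 genes, 9 were detected at 1 TPM or more in both libraries, and their levels ran over several orders of magnitude. Ckm was far above the rest, Ak1, Ckmt2 and Ampd1 followed, then Slc6a8 and Gamt, and Gatm, Ckb and Ampd3 lay below 10 TPM in both libraries of the gene table. Ckmt2 and Ampd1 had nearly equal means, with Ckmt2 the higher in replicate 2 and Ampd1 the higher in replicate 1. Gatm was above Ckb in both libraries, and their difference was smaller than the spread of either. In the gene table Slc6a8 was above Gamt in both libraries, by 1.75-fold in replicate 2 and 1.04-fold in replicate 1, and by 1.65-fold and 0.987-fold in the same order in the second transcript table, so these neighbours were not separated by more than their spread.

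**Figure D1:**
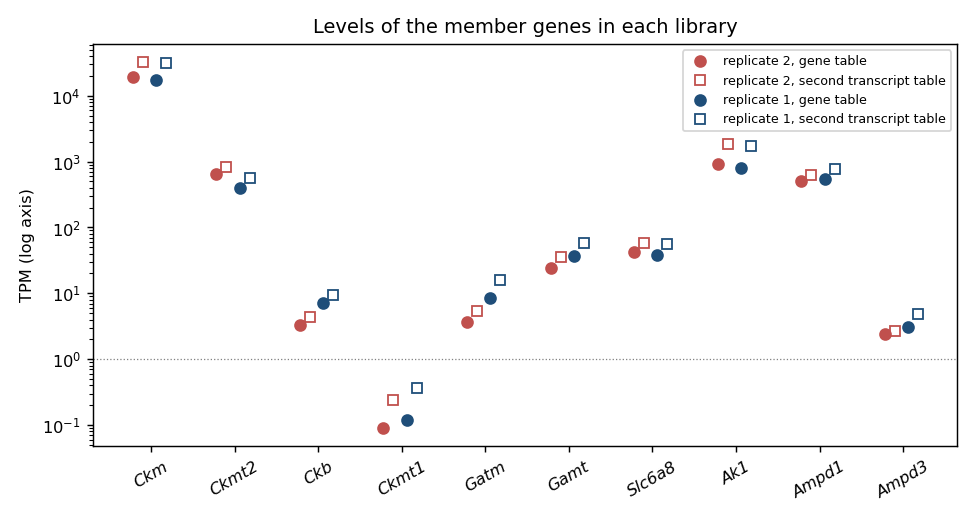
Level of each gene in TPM on a log axis, with replicate 2 left of replicate 1; filled circles are the gene table and open squares the summed transcripts of the second transcript table. Ckm lies at 19516 and 17301 TPM in the gene table and Ckmt1 at 0.09 and 0.12 TPM, below the dotted line at 1 TPM, and the squares lie above the circles for every gene in both libraries.

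Ckm, the cytosolic muscle creatine kinase (ENSMUSG00000030399.2, mm10 chr7:19404776-19422841, plus strand), had 19516 TPM in replicate 2 and 17301 TPM in replicate 1. Its mean of 18408 ± 1566 TPM (SD, n = 2) ranked 3 among 22015 nuclear protein-coding genes. This level and rank include a noncoding transcript, Ckm-202, described below. Over protein-coding transcripts alone, a restriction chosen after seeing the data, the mean was 11580 TPM, and no rank was computed for it. Ckm took 603064 expected counts in replicate 2, 1.56% of the library (Wilson 95% interval 1.55 to 1.56%), and 536380 in replicate 1, 1.45% (1.45 to 1.46%). These intervals cover counting error only. The deposited credibility interval of replicate 2, 19059 to 19170 TPM, does not hold the TPM value itself, and this was so in both libraries for Ckm, Ckmt2, Ak1 and Ckmt1, 4 of the 10 members. Of all genes with enough counts for the comparison of libraries, 5.89% in replicate 2 and 6.06% in replicate 1 had a TPM outside their interval. In the second transcript table the summed level was 31662 ± 838 TPM (SD, n = 2), 1.72 times the gene table.

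Ckmt2, the sarcomeric mitochondrial creatine kinase (ENSMUSG00000021622.3, chr13:91853387-91876885, minus strand), had 653.7 TPM in replicate 2 and 398.6 TPM in replicate 1. The replicate 2 library was the higher by 1.64-fold, a log2 ratio of 0.71. On the CPM scale the log2 ratio was 0.65, with an exact Clopper-Pearson 95% interval of 0.62 to 0.68 that covers counting error only. The slow fibre markers moved the same way, Myh7 with 78.5 TPM in replicate 2 and 38.3 in replicate 1 and Tnnc1 with 48.9 TPM and 23.7 TPM in the same order of libraries; their part in the Ckmt2 ratio was not tested. Ckmt2 has 1 annotated transcript, so its level does not depend on how reads are shared among forms.

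Ckb, the brain-type cytosolic creatine kinase (ENSMUSG00000001270.9, chr12:111669361-111672338, minus strand), had 3.35 TPM in replicate 2 and 7.04 TPM in replicate 1, from 148.3 and 302.6 expected counts. Ckmt1, the ubiquitous mitochondrial creatine kinase (ENSMUSG00000000308.14, chr2:121357714-121363737, plus strand), had 2 expected counts in replicate 2 and 5 in replicate 1. At 0.09 TPM and 0.12 TPM it lay at the floor of these libraries and no ratio is given. The coding sequences of the mitochondrial paralogs Ckmt2 and Ckmt1 were 73.3% identical, with a longest shared run of 39 bases. Those of Ckm and Ckb were more alike over their length, at 76.5%, but had a shorter longest shared run, of 20 bases.

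Within the creatine kinases, Ckm made up 97.2% ± 0.683 of the summed TPM (SD, n = 2), Ckmt2 2.75% ± 0.700 and Ckb 0.0282% ± 0.0164. The Ckm share was 96.7% in replicate 2 and 97.7% in replicate 1. The ratio of Ckm to Ckmt2 was 29.9 in replicate 2 and 43.4 in replicate 1, and that of Ckm to Ckb 5826 and 2458 in the same order. In the second transcript table Ckm to Ckmt2 was 38.6 in replicate 2 and 55.9 in replicate 1. Ckm to Ckb was 7398 and 3245 there. The 4 genes together reached 18940 ± 1743 TPM.

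The Ckm level rests on 3 annotated transcripts. Ckm-203, with 8 exons and 1143 coding bases, is the principal form in the annotation and has the best support level, 1. Ckm-201 lacks exon 2 and has 936 coding bases and support level 5, the weakest. Ckm-202 is noncoding, with 671 bases in 5 exons: exons 2 to 4 of the principal form and 2 upstream exons that neither other form holds. The principal form carried the least: Ckm-203 had 641.9 TPM in replicate 2 and 617.6 TPM in replicate 1, against 11596 and 10305 TPM for Ckm-201 and 7277 and 6379 TPM for Ckm-202. The shares of Ckm TPM were 59.5% ± 0.0990 for Ckm-201, 37.1% ± 0.297 for Ckm-202 and 3.43% ± 0.199 for Ckm-203 (SD, n = 2).

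Exon 2 (chr7:19414119-19414330, mm10, 212 bases) holds the start codon of the principal form, and without it the annotated start lies in exon 3, 69 codons further on. Both starts are printed 5′ to 3′ on the plus strand, with start codons in capitals, because the annotated coding sequence of the most abundant form begins at the second of them. The exon 2 part runs over chr7:19414138-19414330 and the exon 3 part over chr7:19414897-19414937.
Ckm exon 2, coding part: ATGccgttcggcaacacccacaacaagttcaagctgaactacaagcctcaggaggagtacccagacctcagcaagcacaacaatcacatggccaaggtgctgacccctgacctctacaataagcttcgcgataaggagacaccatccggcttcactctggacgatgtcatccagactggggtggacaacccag
Ckm exon 3, first bases: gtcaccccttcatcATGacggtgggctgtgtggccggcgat

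The shares of these forms do not measure how often exon 2 is included. No Ckm transcript of the annotation joins exon 2 to the short 3′ end of Ckm-201, since the last exon of Ckm-203 runs 1257 bases further. Summed over the transcripts that hold each exon, the first transcript table gave 7458 ± 652 TPM for exon 2, 18408 ± 1566 TPM for exons 3 and 4, and 11580 ± 930 TPM for exons 1 and 5 to 8 (SD, n = 2). In the second transcript table the sums were 15167 ± 416 TPM for exon 2, 31662 ± 838 TPM for exons 3 and 4, and 16621 ± 428 TPM for exons 1 and 5 to 8. The stretch of the last exon that Ckm-203 alone holds had 629.8 ± 17.1 TPM in the first table and 125.0 ± 5.86 TPM in the second. The gene total counts Ckm-201 and Ckm-202 as separate molecules, and restricted to transcripts with the last coding exon the Ckm level was 11580 TPM. Whether Ckm-202 stands for molecules of its own was not tested. A930016O22Rik, annotated on the other strand of the same locus, had 1.13 TPM in replicate 2 and 1.17 TPM in replicate 1, far below each Ckm form.

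**Figure D2:**
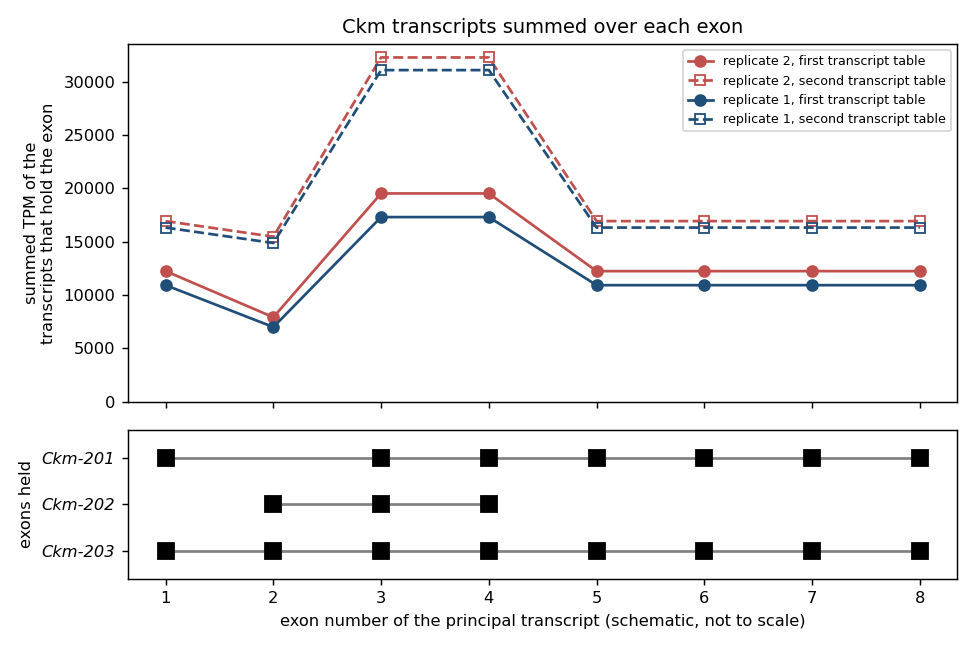
Upper panel: summed TPM of the Ckm transcripts that hold each exon, by exon number of the principal form Ckm-203, for replicate 2 and replicate 1 in the first (filled) and second (open) transcript tables; lower panel: the exons of Ckm-203 held by each transcript, as a schematic that leaves out the 2 upstream exons of Ckm-202. Exons 3 and 4, which all 3 transcripts hold, reach 18408 TPM on average in the first table, against 7458 TPM for exon 2 and 11580 TPM for exons 5 to 8.

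Creatine supply was represented by Slc6a8, Gamt and Gatm. Slc6a8, the creatine transporter of the plasma membrane (ENSMUSG00000019558.14, chrX:73673150-73682502, plus strand), had 42.5 TPM in replicate 2 and 38.0 in replicate 1, a mean of 40.2 ± 3.20 TPM (SD, n = 2). Gamt, which methylates guanidinoacetate to creatine (ENSMUSG00000020150.13, chr10:80258151-80261012, minus strand), had 24.3 TPM in replicate 2 and 36.4 TPM in replicate 1. Gatm, which makes guanidinoacetate from arginine and glycine (ENSMUSG00000027199.14, chr2:122594467-122611303, minus strand), had 3.68 TPM in replicate 2 and 8.55 TPM in replicate 1. Gatm, the first enzyme of synthesis, was the lowest of the 3 in both libraries. Slc6a8 was the highest in replicate 2. In replicate 1 its order with Gamt depended on the table, at 1.04-fold in the gene table and 0.987-fold in the second transcript table. It also depended on the transcripts counted. Over protein-coding transcripts alone, a restriction chosen after seeing the data, Slc6a8 had 32.3 TPM and Gamt 36.2 TPM in replicate 1. Gamt exceeded Gatm by 6.59-fold in replicate 2 and 4.25-fold in replicate 1.

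Slc6a8 has forms that differ in the length of exon 9. In Slc6a8-201 the exon runs 15 bases, or 5 codons, further than in Slc6a8-203 (chrX:73680057-73680071). The exon 9 junctions over chrX:73680027-73680161 are shown 5′ to 3′ on the plus strand, with the added bases in capitals, since the transcript tables ordered these forms differently.
Slc6a8-201: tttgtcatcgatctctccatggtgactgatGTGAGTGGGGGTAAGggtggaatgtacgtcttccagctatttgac
Slc6a8-203: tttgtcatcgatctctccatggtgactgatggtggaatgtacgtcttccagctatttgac

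In the first transcript table Slc6a8-201 took 65.5% of the TPM of Slc6a8-201, Slc6a8-203 and Slc6a8-204 in replicate 2 and 62.7% in replicate 1. In the second table it took 38.6% in replicate 2 and 36.2% in replicate 1. The libraries were close to each other within a table, while the tables put Slc6a8-201 on opposite sides of an even split. Slc6a8-201 has 3964 bases and Slc6a8-203 has 3314, so these forms differ by far more than the 15 bases of exon 9. These shares of whole transcripts therefore do not measure how often the longer exon 9 is used.

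Ak1, the cytosolic adenylate kinase of muscle (ENSMUSG00000026817.14, chr2:32621758-32635058, plus strand), had 907.7 TPM in replicate 2 and 788.9 in replicate 1, and its mean of 848.3 ± 84.0 TPM ranked 38 among nuclear protein-coding genes. It made up 93.8% ± 0.440 of the TPM of the 9 adenylate kinases (SD, n = 2). Ak6, a nuclear adenylate kinase, had 23.5 TPM in replicate 2 and 23.4 TPM in replicate 1. Ak3, a kinase of the mitochondrial matrix, had 19.2 TPM in replicate 2 and 18.6 in replicate 1. Ak4, Ak5, Ak7 and Ak8 were below 1 TPM in both libraries and Ak9 was listed at 0. The ratio of Ckm to Ak1 was 21.5 in replicate 2 and 21.9 in replicate 1 in the gene table, and 17.3 and 18.0 in the second transcript table.

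The tables did not share the Ak1 form they ranked highest. Ak1-201 starts in an exon of its own and has 630 coding bases, and Ak1-202 has 582, a difference of 16 codons. In mouse the longer form is known as a membrane-associated variant. Their coding starts are given 5′ to 3′ on the plus strand, with the bases before the shared exon in capitals, because the reads that tell the forms apart must fall there or in the noncoding ends. The Ak1-201 stretch lies within chr2:32629562-32629884 and the Ak1-202 stretch within chr2:32628482-32629884.
Ak1-201: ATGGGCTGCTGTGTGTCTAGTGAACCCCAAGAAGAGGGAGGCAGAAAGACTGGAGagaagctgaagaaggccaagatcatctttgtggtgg
Ak1-202: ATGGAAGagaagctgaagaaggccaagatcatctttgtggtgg

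In the first transcript table Ak1-202 had 861.1 TPM in replicate 2 and 725.3 in replicate 1, and Ak1-201 had 2.51 TPM and 2.27 TPM in the same order. In the second table Ak1-201 had 1026 TPM in replicate 2 and 848.1 in replicate 1, and Ak1-202 was below 0.01 TPM in both. The long form was therefore 0.285% ± 0.00821 of the protein-coding Ak1 TPM in the first table and 93.2% ± 5.84 in the second (SD, n = 2). The second table also gave 807.9 TPM in replicate 2 and 769.4 TPM in replicate 1 to Ak1-204, a retained-intron form that had 7.84 TPM and 7.60 TPM in the first. The gene sum of the second table was 2.11 times the gene table. The form of Ak1 could not be settled from these tables.

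Ampd1, the muscle AMP deaminase (ENSMUSG00000070385.12, chr3:103074014-103099720, plus strand), had 508.7 TPM in replicate 2 and 541.0 in replicate 1, a mean of 524.9 ± 22.8 TPM (SD, n = 2). It made up 99.2% ± 0.0266 of the TPM of the 3 AMP deaminases. Ampd3, known as the erythrocyte form (ENSMUSG00000005686.17, chr7:110768206-110812405, plus strand), had 2.43 TPM in replicate 2 and 3.13 TPM in replicate 1, or 0.524% ± 0.0706. Ampd2, the liver-type enzyme, had 1.56 TPM in replicate 2 and 1.32 TPM in replicate 1. Ampd1 exceeded Ampd3 by 209.4-fold in replicate 2 and 172.9-fold in replicate 1. Red blood cell markers summed to 223 TPM in replicate 2 and 263 in replicate 1, and their part in the Ampd3 level was not tested. Ampd3 overlaps Rnf141 on the other strand, which had 7.15 TPM in replicate 2 and 8.21 in replicate 1, and no source used here says whether reads were counted by strand.

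Ampd1 has a second exon of only 12 bases (chr3:103075407-103075418) that keeps the reading frame and adds 4 codons. Ampd1-201 holds it and Ampd1-203, an annotated fragment of 579 bases with support level 5, lacks it. The first 64 coding bases of Ampd1-201 and the matching bases of Ampd1-203, within chr3:103074096-103079058, are shown 5′ to 3′ on the plus strand with exon 2 in capitals.
Ampd1-201: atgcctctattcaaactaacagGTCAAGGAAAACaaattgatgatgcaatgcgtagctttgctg
Ampd1-203: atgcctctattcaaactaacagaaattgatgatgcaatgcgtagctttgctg

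Ampd1-201 had 342.8 TPM in replicate 2 and 368.5 in replicate 1, and Ampd1-203 had 88.0 TPM and 99.0 TPM in the same order. Of the sum of these transcripts, Ampd1-203, which lacks exon 2, took 20.4% in replicate 2 and 21.2% in replicate 1 in the first table. In the second table the shares were 11.6% in replicate 2 and 20.4% in replicate 1. Because Ampd1-203 is a fragment of 579 bases and Ampd1-201 has 2342, these shares do not measure how often exon 2 is skipped. Both tables gave most of the TPM to the form with the exon, and the libraries differed more in the second table, by an SD of 6.27 percentage points, than in the first, with an SD of 0.532. A further fragment, Ampd1-204, had 68.3 TPM in replicate 2 and 66.4 TPM in replicate 1.

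**Figure D3:**
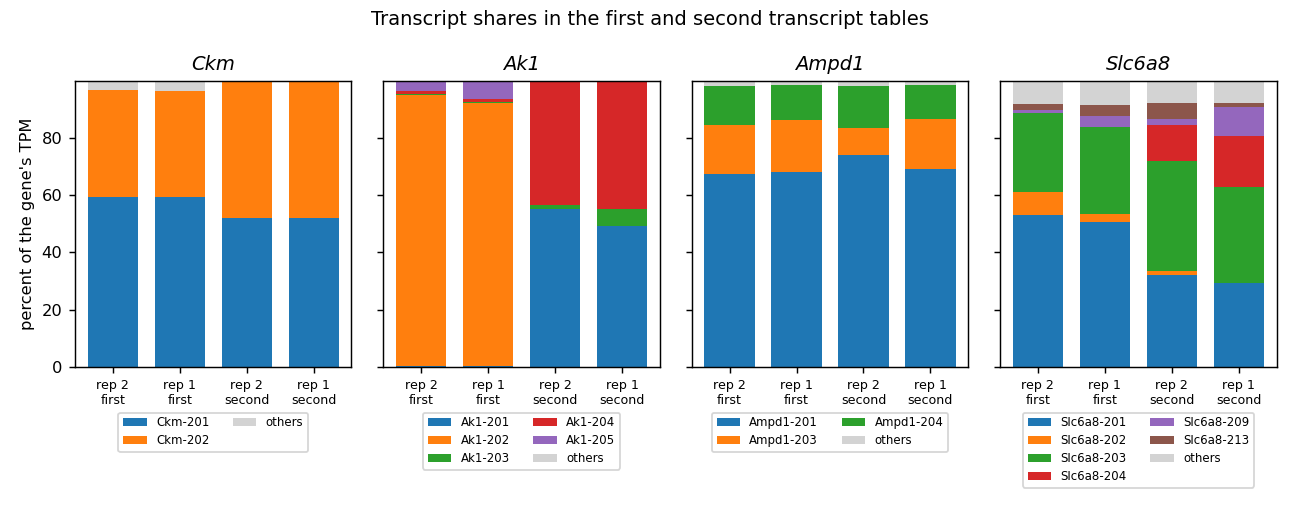
Percent of each gene's TPM carried by each transcript for Ckm, Ak1, Ampd1 and Slc6a8, with replicate 2 and replicate 1 side by side in the first and then the second transcript table; transcripts under 5% in all 4 columns are pooled as others. Ak1-202 carries 93.4% of Ak1 on average in the first table and Ak1-201 52.2% in the second, whereas Ampd1-201 leads in both.

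Across the 10 genes there were 58 annotated transcripts, of which 33 reached 5% of their gene in at least 1 library of either table. The same transcript led in both tables for 7 of the 10 genes, and Ak1, Slc6a8 and Ckmt1 were the exceptions. Ckmt2 has 1 annotated transcript and could not differ, and the forms of Ckmt1 rest on 2 expected counts in replicate 2 and 5 in replicate 1. Single forms carried nearly all of Gamt (Gamt-202, 97.6%), Ckb (Ckb-201, 96.1%) and Gatm (Gatm-201, 95.4%) in the first table. In the second table the shares were 98.0% for Gamt-202, 89.5% for Ckb-201 and 78.2% for Gatm-201. Ampd3 was spread more widely, with Ampd3-201 at 46.6% of its TPM. By expected counts, which are not scaled by length, Ampd3-201 held 78.2% in replicate 2 and 71.0% in replicate 1.

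The libraries were compared gene by gene by the log2 ratio of TPM + 0.1, replicate 2 over replicate 1. To count as different, a gene needed an average of 50 or more expected counts, a ratio of 2-fold or more, and deposited credibility intervals that did not overlap. Of all 11632 genes with enough counts, 2.21% differed, with 0.447% higher in replicate 2 and 1.76% lower in replicate 2. Of the 9 members with enough counts, 2 differed, Ckb and Gatm, both lower in replicate 2. The median log2 ratio was -0.09 over these 9 members and 0.00 over all tested genes, and the median absolute ratio 0.35 against 0.18.

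Ckb had a log2 ratio of -1.05, and its intervals were 2.97 to 4.25 TPM in replicate 2 and 6.35 to 8.08 TPM in replicate 1. Gatm had a log2 ratio of -1.19, with intervals of 3.13 to 4.46 TPM in replicate 2 and 7.88 to 9.41 TPM in replicate 1. The second transcript table gave -1.12 for Ckb and -1.53 for Gatm. With a pseudocount of 1 the Ckb ratio was -0.89 and no longer reached 2-fold, and Gatm alone differed. Gamt was also lower in replicate 2, at a log2 ratio of -0.58 with intervals of 22.2 to 25.9 TPM in replicate 2 and 33.7 to 38.1 TPM in replicate 1, and did not reach 2-fold.

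The Schwann cell, fibroblast and macrophage markers moved the same way as Ckb, Gatm and Gamt. All 8 Schwann cell markers were lower in replicate 2. Col1a1, a fibrillar collagen of fibroblasts, had 325.6 TPM in replicate 2 and 730.1 TPM in replicate 1. Macrophage markers were lower in replicate 2 for 5 of 5 genes, with sums of 16.3 TPM in replicate 2 and 26.7 in replicate 1, and endothelial markers summed to 45.2 TPM and 45.0 TPM in the same order. Of the 6 smooth muscle markers, 4 were lower and 2 higher in replicate 2. Their sums were 820 TPM in replicate 2 and 838 TPM in replicate 1. The neuron markers summed to 0.23 TPM in replicate 2 and 0.19 TPM in replicate 1, with Snap25 listed at 0 in both. The part of these cell types in the Ckb, Gatm and Gamt ratios was not tested, and in bulk tissue fewer cells of a type and less RNA per cell cannot be told apart.

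**Figure D4:**
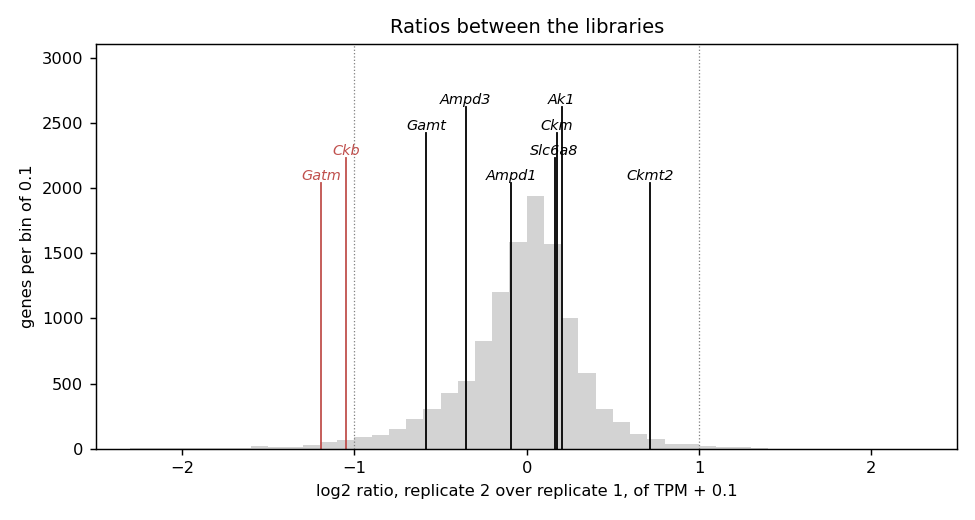
Grey bars: number of genes per 0.1 bin of the log2 ratio of replicate 2 over replicate 1 among 11632 tested genes; lines: the 9 tested members, in red where the gene met the criteria, with dotted lines at a 2-fold ratio either way. Gatm at -1.19 and Ckb at -1.05 lie beyond the lower line, and Ckmt2 at 0.71 is the highest member.

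The remaining genes of the creatine and adenine nucleotide pathways were taken from 10 lists of 52 genes that include the members. Of the 42 genes that are no members, 28 were detected in both libraries, 30 had enough counts and 0 differed, with a median log2 ratio of 0.05. Since 2.21% of all tested genes differed, 0 of 30 is close to the share over all genes. The genes that return IMP to AMP differed in level. Adssl1, the muscle adenylosuccinate synthase that takes IMP back towards AMP, had 366.2 TPM in replicate 2 and 315.6 TPM in replicate 1. Adsl, the lyase that completes the return, had 69.1 TPM in replicate 2 and 58.5 in replicate 1, while Adss, the synthase of other tissues, had 3.52 TPM and 3.19 TPM in the same order. The muscle-type isozymes Ckm, Ak1, Ampd1 and Adssl1 were thus each the highest of their family in both libraries.

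Slc25a4, the adenine nucleotide translocator of heart and muscle mitochondria, had 1228 TPM in replicate 2 and 1017 TPM in replicate 1, against 29.4 TPM and 32.0 TPM for the more widely expressed Slc25a5. In the list for AMP and IMP breakdown, 7 of 12 genes were detected, 8 had enough counts and 0 differed, where 2.21% of all tested genes did. Of these 8, the level in replicate 2 was the higher for 2 and the lower for 5, and the median log2 ratio was -0.34. The highest of the list were Xdh, the xanthine dehydrogenase that forms urate, with 21.9 TPM in replicate 2 and 22.7 in replicate 1, and the nucleotidase Nt5c3 with 22.8 TPM and 21.6 TPM in the same order. Nucleotidases were listed by symbol, and whether each, Nt5c3 included, acts on AMP or IMP was not tested. Nt5c1a, a cytosolic AMP nucleotidase of muscle, had 18.1 TPM in replicate 2 and 13.0 TPM in replicate 1. Each stood well below Ampd1, which acts on the same AMP pool as Nt5c1a. Adk, which returns adenosine to AMP, had 38.1 TPM in replicate 2 and 31.6 in replicate 1, and Gmpr, which converts GMP to IMP, had 63.7 TPM and 52.0 TPM. Mat2a, which makes the methyl donor that Gamt uses, had 57.3 TPM in replicate 2 and 56.8 in replicate 1, and its liver counterpart Mat1a was listed at 0.

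**Figure D5:**
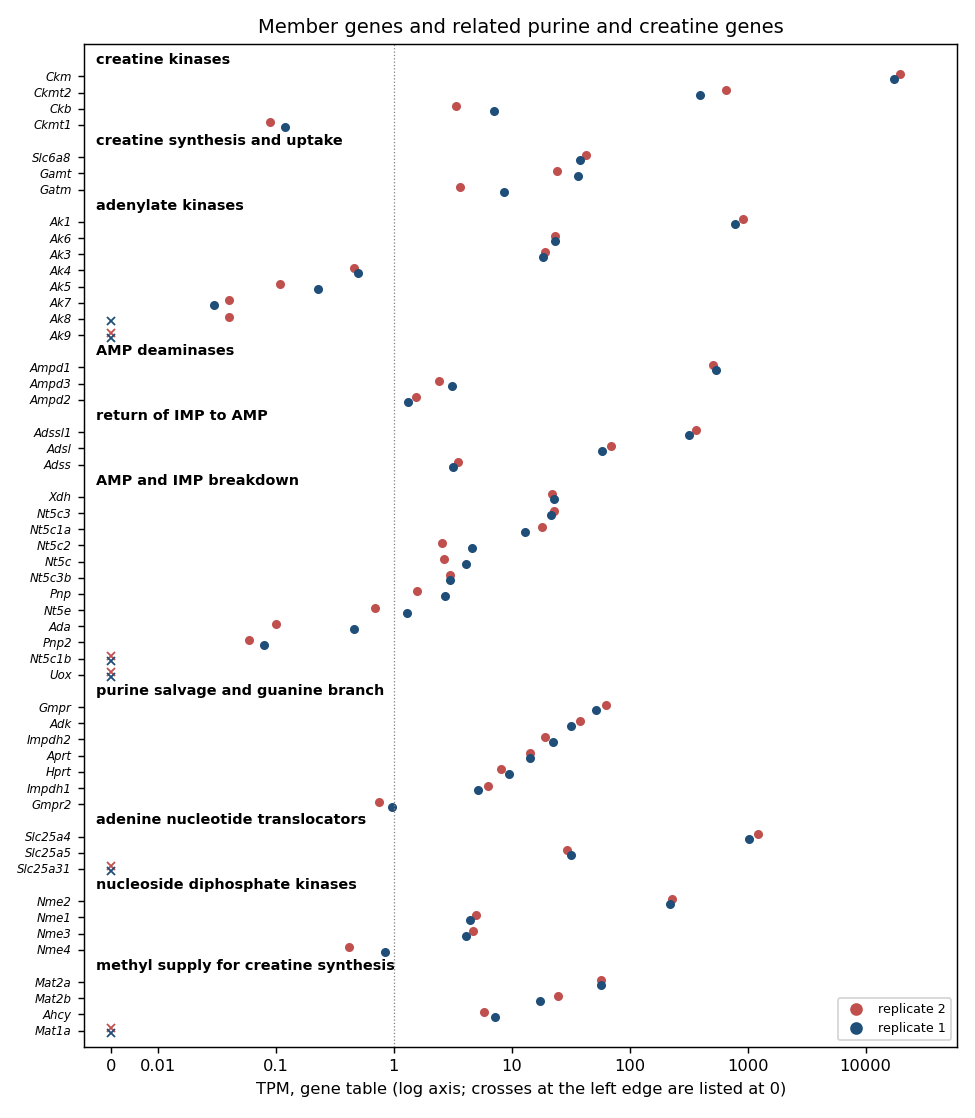
TPM of genes from the 10 lists on a log axis, grouped by role and ordered by mean within each group, with replicate 2 above replicate 1; crosses at the left edge are listed at 0 and the dotted line marks 1 TPM. One gene stands above the rest in most groups, such as Ampd1 at 508.7 and 541.0 TPM over Ampd3 at 2.43 and 3.13 TPM.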

How the data were processed

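Total RNA-seq of gastrocnemius was available as 3 tables for each of 2 libraries. Transcriptome alignments on mm10 with GENCODE M21 gave the gene table and the first of the transcript tables, and reads with an index gave the second, per the file headers and notes. No source used here names the tools, and the columns are laid out as RSEM and kallisto write them. Expected counts, as deposited by the authors, are estimates and need not be whole. TPM, also from the authors, is scaled by length over all features listed, tRNA genes and spike-ins included. FPKM deposited by the authors was used as an alternative. Transcript shares in percent were recomputed from TPM and lay close to the deposited percent column. Deposited credibility intervals have no stated level.

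All 55536 Ensembl genes matched the annotation by identifier. Gene sums of the second table are summed transcript TPM. Ratios are replicate 2 over replicate 1 of log2(TPM + 0.1), which understates those of low genes. A chi-square statistic of rounded counts over 14984 genes was 35.1 per degree of freedom, so the libraries were not 1 library deposited in duplicate. Named genes were the 10 members, the pathway lists and transcripts with at least 5% of their gene. Values of 2 listed genes are not reported here, though list sums and counts include them. Members and lists were chosen with earlier results of these data known. Sequences were read from the M21 transcripts. Coding sequences were aligned with Biopython 1.88; other steps used Python 3.11.15, numpy 2.4.6, pandas 2.3.3, scipy 1.17.1 and matplotlib 3.10.9. Alternatives were FPKM, posterior mean TPM, the second table, TPM rescaled over nuclear protein-coding genes, other count, TPM and pseudocount limits, each library alone, and, chosen after seeing the data, restricted sets of transcripts.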

Additional observations from a re-analysis of the deposited data

How the results depend on the processing

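Ckm, Ak1 and Ampd1 led their families under every alternative run. The Ckm share of creatine kinase TPM was 96.7 to 97.7% with 1 library left out, and 95.7% with protein-coding transcripts alone or with forms that hold the last coding exon, both chosen after seeing the data. The Ak1 share was 93.4 to 94.1% with 1 library left out and 95.7% in the second transcript table. The Ampd1 share was 99.2% in either library alone, 99.0% by posterior mean TPM, and, with restrictions chosen after seeing the data, 99.4% over protein-coding transcripts and 98.8% over Ampd1-201 and Ampd1-202. Detection covered 9 members in either library alone and in the second table, 9 at 0.1 TPM and 6 at 5 TPM. The number of members that differed was 1 with a pseudocount of 1, at which 1.07% of all genes differed, and 2 under the other settings. No log2 ratio of a member changed sign, and 16 such values moved by more than the counting or replicate spread while 24 did not; of mean levels 25 moved and 36 did not. Rescaling over nuclear protein-coding genes raised every member's mean level, by 2.41-fold (Ckmt2) to 2.45-fold (Gatm), with Ckm at 44610, Ak1 at 2055 and Ampd1 at 1275 TPM. The second transcript table raised them by 1.32-fold (Ckmt2) to 2.88-fold (Ckmt1). No paired analysis was possible because there is 1 group.

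Depth limits Ckmt1, at 2 and 5 counts, and the forms of Ampd3. The cause of the difference between the transcript tables was not tested. With 2 libraries an SD is itself uncertain, and counting and credibility intervals leave out the spread between samples. Reads of the CAST allele were matched to a C57BL/6 annotation, and the effect on these levels was not tested.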
